A study of Triticum aestivum with 72 samples.

Results

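The gene symbol LOC100049018, with the synonym rbcl, is carried by 28 probe sets of an Affymetrix wheat array. A probe set is a group of short probes whose signals are summarised to 1 value for 1 target sequence. All 28 were taken by that symbol, whatever their values, out of 61290 probe sets in the table and out of 1273 that have 1 gene symbol.

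Rubisco is the enzyme that fixes carbon dioxide in the Calvin cycle, and it is built from large and small subunits. In plants the large subunit carries the catalytic site and is encoded by the rbcL gene of the plastid genome, whereas the small subunits come from nuclear genes. In young cereal grains the green inner layers of the pericarp hold chloroplasts and photosynthesise, and the starchy endosperm does not. The supplied RefSeq table lists LOC100049018 as a protein-coding gene on a numbered nuclear chromosome and lists 0 plastid genes, so the sources do not settle which copy the probe sets read. The labels name polyadenylated RNA as the molecule, and plastid transcripts mostly lack a stable poly(A) tail. How much of a plastid transcript enters the labelled material was not tested.

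Whole developing seeds of bread wheat, collected 5 days after anthesis from field-grown spikes, were measured on 72 arrays. They came from 36 lines that descend from the cross RL4452 x AC Domain, and each line has 2 arrays from separate biological replicates. The replicates are numbered 3 and 1 in 35 lines and 3 and 2 in line H9, no line was treated, and neither parent is among the arrays. In such bulk tissue, fewer cells of a type and less RNA per cell cannot be told apart. The arrays were hybridised on 12 days, per their run records. The array medians lay between 5.31 and 5.44 on the log2 scale, and precision is limited by how many arrays there are. Only 22 of the 72 arrays had the other array of their own line as the nearest one (Pearson's correlation over the 10% most variable probe sets), and in 22 lines neither array did. The 3 arrays farthest from the average array were B65 replicate 1, B33 replicate 3 and C31 replicate 3.

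The seeds contained green tissue by their transcripts. Phosphoribulokinase (PRK, which makes the substrate of Rubisco), fructose-1,6-bisphosphatase (FBP), the oxygen-evolving proteins PsbO and PsbP and the Rieske protein petC had 8 probe sets, of which 7 lay above the array median on all 72 arrays and 1, of petC, on none. Of 11 probe sets for endosperm starch and storage genes, 3 lay above the array median on all 72 arrays. These were the starch genes AGP-S and Wx-A1, at means of 11.19 and 9.03, and 1 low-molecular-weight glutenin probe set at 6.67. The other 8, all gliadins or glutenins, the storage proteins of the mature grain, were never above it. The embryo and aleurone genes COR410 and LOC543476 were above it on 0 arrays, while the 2 probe sets of PER1 were above it on 63 and 72 arrays.

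The 28 rbcl probe sets fell into 3 ranges of the scale. The brightest 2, Ta.24976.1.S1_x_at and TaAffx.128414.1.A1_x_at, had the highest means of all 61179 probe sets other than Affymetrix controls. Their means were 14.65 ± 0.18 and 14.64 ± 0.20 in log2 units (SD over 72 arrays). Another 2, TaAffx.128414.196.S1_at and TaAffx.128414.181.S1_at, had means of 8.39 ± 0.27 and 7.95 ± 0.32, above those of 83.2% and 79.5% of all probe sets. The remaining 24 had means between 3.22 and 5.25, all below the median of 5.38 over all probe sets, and 18 of them never exceeded the array median on any array. A level is a property of a probe set as well as of its target, so these positions describe the signal of each probe set and do not compare amounts of transcript.

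The names of the probe sets carry some information on specificity. In Affymetrix naming, the suffix x_at marks probe sets with probes that can also match other sequences, and s_at marks probes shared by several transcripts. Of the 28, 4 end in x_at, among them both of the brightest, and 1 ends in s_at. The stem TaAffx.128414 is shared by 59 probe sets of the array, of which 24 are rbcl probe sets and 35 have no symbol in the supplied annotation. Those 35 had means from 3.22 to 11.90. None of them lay above 14, 12 lay between 5.5 and 14, and 23 lay under 5.5.

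Ta.24976.1.S1_x_at ranged from 13.96 in B33 replicate 3 to 14.85 in H9 replicate 2, with a median of 14.72. TaAffx.128414.1.A1_x_at ranged from 13.94 in B33 replicate 3 to 14.85 in G30 replicate 3, with a median of 14.71. One or the other held the highest value of the whole array on 67 of 72 arrays, and both exceeded every other probe set on 64. The values were bunched at the top, with the median 0.13 and 0.14 below the highest array and 0.76 and 0.77 above the lowest. On the linear scale the highest value of TaAffx.128414.1.A1_x_at, 29610, was also the highest of the table. How far such values still follow the amount of target was not tested. Of the 14 probe sets with means above 14, these had the 2 largest SDs, and those of the other 12 ran from 0.12 to 0.18.

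The 5 lowest arrays of Ta.24976.1.S1_x_at were all replicate 3 arrays, those of B33, C31, G13, E5 and H8, at 13.96, 14.09, 14.16, 14.20 and 14.24. In TaAffx.128414.1.A1_x_at the same arrays read 13.94, 14.10, 13.95, 14.19 and 14.19. On 4 of them the upper end of the array was low as a whole, with 0 or 1 other probe sets above 14. The array of G13 differed, with 21 other probe sets above 14 and a highest other value of 14.56. The 3'/5' ratio of these arrays, the mean log2 ratio of 3' to 5' probe sets of 7 wheat control genes, was high in B33, C31 and H8, at 1.64, 1.57 and 1.53, and low in G13 and E5, at 0.56 and 0.77. Over all arrays it ran from 0.51 to 1.79. Of the green tissue genes, 4 were read on these arrays, and they also set G13 apart. FBP was not among them. PRK, PsbO, PsbP and petC, each by its highest probe set, read 11.33, 13.10, 12.80 and 12.71 on the array of G13, all above their means over 72 arrays of 11.17, 12.53, 12.25 and 12.38. On the arrays of B33, C31, E5 and H8 all 4 lay below those means, with PRK at 10.93, 10.89, 10.91 and 10.90 and PsbO at 11.97, 11.82, 12.34 and 12.19.

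The first question of the design was whether the lines differed beyond the spread between their own replicates. None of the 28 rbcl probe sets passed an adjusted p of 0.05 (limma, moderated F-test over 36 lines, Benjamini-Hochberg adjustment over all 61179 probe sets), against 2.54% of all probe sets. At an unadjusted p under 0.05 there were 5 of 28, against 13.9% of all. The median intraclass correlation, the part of the array variance due to lines, was 0.05 over the rbcl probe sets and 0.06 over all probe sets. It exceeded 0.3 in 5 of 28, against 10.4% of all. On simulated data the test found 2%, 34%, 96% and 100% of 50 probe sets each with intraclass correlations of 0.3, 0.5, 0.7 and 0.9. All other simulated probe sets had no line differences, and fewer passed than in the real data. The adjustment was therefore stricter there, and these shares may understate what the test finds in the real data. Moderate line differences can still be missed.

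TaAffx.128414.16.S1_at came closest, with F = 2.61, an adjusted p of 0.068 in limma and an intraclass correlation of 0.45. By line mean it lay lowest in G13, at 3.86, and highest in A81, at 4.88. The arrays of A81 read 5.01 and 4.76 (replicates 3 and 1), those of DH95 read 4.70 and 4.54, and those of A77 read 4.53 and 4.61. At the low end, G13 read 3.84 and 3.88, J15 3.90 and 3.83, and F48 4.02 and 3.72. The top and bottom lines did not overlap, but they were picked by the same values, and the order between them is loose. Of the 35 gaps between neighbouring line means only that between A81 and DH95, 0.26, exceeded the standard error of a difference between 2 lines, 0.19. The call depends on single arrays, and the probe set passed in 8 of the 72 fits that left out 1 array. These left out G32, G30 or H23 (either replicate), H5 replicate 1 or B65 replicate 3, with adjusted p between 0.012 and 0.046. G32 read 3.71 and 4.45 in replicates 3 and 1, and G30 read 4.76 and 4.11.

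TaAffx.128414.72.S1_at had the widest range of line means, 1.26, from 3.62 in F82 to 4.89 in A81 (F = 2.21, limma adjusted p = 0.157). A81 read 4.91 and 4.86 in replicates 3 and 1, A77 4.94 and 4.73, and DH95 5.02 and 4.34, whereas F82 read 3.52 and 3.72, G32 3.64 and 3.75, and G13 3.70 and 3.70. The arrays of the 3 highest and of the 3 lowest lines did not overlap, but these lines were picked by the same values, so this is no support beyond the F-test. E5 was neither, and it read 3.36 in replicate 3 and 4.39 in replicate 1, a difference of 1.03. When the 22 lines in which neither array was nearest to its partner were left out, this probe set alone passed (limma adjusted p = 0.035), and 7.3% of all probe sets did. That choice of lines used the same data and kept lines whose arrays are alike, which favours large F values. The pass is therefore no separate support for a line difference.

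Of the probe sets in the middle range, TaAffx.128414.196.S1_at had the third largest F (2.06, limma adjusted p = 0.207, intraclass correlation 0.34). Its line means ran from 7.99 in C25 to 8.77 in D39. B11 read 8.84 and 8.69 in replicates 3 and 1, H23 8.79 and 8.73, and D39 9.04 and 8.49. The lowest lines were C25 at 8.06 and 7.93, G32 at 8.30 and 7.81, and A91 at 8.16 and 7.96. With the hybridisation day as a block it alone passed, with an adjusted p of 0.038 in limma, against 2.65% of all. TaAffx.128414.181.S1_at ranged from 7.53 in C31 to 8.40 in A77 by line mean (F = 1.38, limma adjusted p = 0.554). Its widest pair was B33, at 7.03 in replicate 3 and 8.34 in replicate 1, a difference of 1.30 that is larger than the whole range of line means, 0.87.

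In the brightest probe sets no line difference was detected. Ta.24976.1.S1_x_at had line means from 14.34 in B33 to 14.84 in H9 (F = 1.02, limma adjusted p = 0.766), and TaAffx.128414.1.A1_x_at from 14.31 in G13 to 14.83 in A81 (F = 1.05, limma adjusted p = 0.754). No gap between neighbouring line means, at most 0.06 in both, reached the standard error of a difference between 2 lines, 0.18 and 0.20. The same held for TaAffx.128414.72.S1_at despite its larger F, so such gaps do not show whether lines differ. In lines B33, C31 and H8 the arrays lay far apart, with B33 at 13.96 and 14.72 in replicates 3 and 1, C31 at 14.09 and 14.70, and H8 at 14.24 and 14.81.

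Among the other probe sets with a large F or range, TaAffx.128414.146.S1_at ran from 4.47 in F82 to 5.38 in A81 (limma adjusted p = 0.257). TaAffx.128414.130.S1_at ran from 4.39 in E5 to 5.51 in C25 (adjusted p = 0.448), with a widest pair in A91 of 1.09. TaAffx.128896.17.S1_s_at ran from 3.25 in G13 to 4.27 in G30 (adjusted p = 0.671). The lowest probe set on the scale, TaAffx.128414.53.S1_at, had the narrowest range, 0.29. Line A81 was the highest line in 7 of the 28 probe sets, and A77 and D39 in 3 each. F82 was the lowest in 4, and A91 and G13 in 3 each. How often these lines were extreme over all probe sets was not counted, so these counts do not set the rbcl probe sets apart. The arrays of A81 had 3'/5' ratios of 1.61 and 1.48 in replicates 3 and 1, and those of G13 had 0.56 and 0.75. The part of the ratio in these line means was not tested for single lines.

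Lines F38a and F38b share a number in the labels and differ by a letter. None of the 28 rbcl probe sets differed between them at an adjusted p of 0.05, against 0.0% of all probe sets (limma contrast in the fit of 36 lines). At an unadjusted p under 0.05 there was 1 of 28, against 3.05% of all. It was TaAffx.128414.47.S1_at, at 3.56 and 3.60 in F38a (replicates 3 and 1) and at 3.93 and 3.98 in F38b, a difference of -0.37 ± 0.16 (SE, limma adjusted p = 1.000). The arrays of the 2 lines did not overlap in it, but it was picked by its p. With 2 arrays per line a lack of overlap is weak, and its share over all probe sets was not counted. Ta.24976.1.S1_x_at read 14.58 and 14.72 in F38a and 14.72 and 14.69 in F38b. On simulated data this contrast found 38% of 50 differences of 4 residual SDs, so the comparison covers only large differences.

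Replicate 3 was compared with replicate 1 in the 35 lines that have both, with the line as a block. TaAffx.128896.17.S1_s_at alone passed, against 2.6% of all probe sets, and 6 of 28 passed at an unadjusted p under 0.05, against 18.5% of all. Of the whole table, 377 probe sets (0.616%) were higher and 1213 (1.98%) lower in replicate 3, and with quantile normalisation 661 were higher and 989 lower. TaAffx.128896.17.S1_s_at ranged from 3.27 to 4.69 with a median of 3.80 in replicate 3, against 2.99 to 3.98 with a median of 3.63 in replicate 1. It was higher in replicate 3 in 29 of 35 lines, by 0.24 ± 0.06 log2 units (SE, limma adjusted p = 0.026). The ranges overlap, and the 3 highest arrays were the replicate 3 arrays of D15 at 4.69, G30 at 4.63 and C10 at 4.51. Leaving out any 1 of the 35 lines kept it past the threshold, at an adjusted p of 0.044 or less.

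The brightest probe sets missed the threshold. Ta.24976.1.S1_x_at averaged 14.58 ± 0.23 in replicate 3 and 14.70 ± 0.10 in replicate 1 (SD, n = 35 each), a difference of -0.12 ± 0.04 (SE, limma adjusted p = 0.084). It was lower in replicate 3 in 24 of 35 lines. TaAffx.128414.1.A1_x_at averaged 14.57 ± 0.25 in replicate 3 and 14.71 ± 0.11 in replicate 1, a difference of -0.13 ± 0.04 (SE, limma adjusted p = 0.085). The medians were 14.70 in replicate 3 and 14.73 in replicate 1 for Ta.24976.1.S1_x_at, and 14.65 and 14.74 for TaAffx.128414.1.A1_x_at. The ranges overlapped in both, and the 5 lowest arrays were all in replicate 3. Without B33 replicate 3, C31 replicate 3 and B65 replicate 1 the difference of Ta.24976.1.S1_x_at was -0.09 ± 0.04 (SE, limma adjusted p = 0.176).

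Ta.14567.2.S1_at ranged from 3.75 to 5.48 with a median of 4.16 in replicate 3, against 3.64 to 4.36 with a median of 4.04 in replicate 1. The difference was 0.21 ± 0.07 (SE, limma adjusted p = 0.092), higher in replicate 3 in 23 of 35 lines. Its 2 highest arrays were B33 replicate 3 at 5.48 and C31 replicate 3 at 5.35. These were the 2 lowest arrays of Ta.24976.1.S1_x_at, and in TaAffx.128414.1.A1_x_at they were the lowest and, after G13 replicate 3, the third lowest. TaAffx.128414.37.S1_at was higher in replicate 3 in 25 of 35 lines, by 0.15 ± 0.05 (SE, limma adjusted p = 0.095), and passed without line J15 (adjusted p = 0.035). TaAffx.128414.229.A1_x_at had the third largest negative difference, -0.08 ± 0.08 (SE, limma adjusted p = 0.591).

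Replicate and hybridisation day were close to inseparable. Of the 12 days, 3 held only replicate 1 arrays and 5 only replicate 3 arrays, and only 2 lines had both arrays on 1 day. With the day as a further block, 0 of 28 rbcl probe sets and 0 of all probe sets passed in limma. TaAffx.128896.17.S1_s_at then differed by 0.20 ± 0.13, Ta.14567.2.S1_at by 0.05 ± 0.16 and Ta.24976.1.S1_x_at by -0.02 ± 0.09 (SE). Within the 3 days that hold both replicates, days 5, 6 and 10, TaAffx.128896.17.S1_s_at differed by 0.19, -0.02 and 0.38, and 0 rbcl probe sets passed.

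Differences between hybridisation days were found in 10 of 28 rbcl probe sets, against 41.3% of all (limma, moderated F-test over 12 days). At an unadjusted p under 0.05 there were 14, against 51.3% of all. All 10 belong to the 24 on the low part of the scale. TaAffx.128414.229.A1_x_at had the largest F (5.43, limma adjusted p = 1.06e-04). It averaged 4.22 ± 0.32 on day 4 (SD, n = 8 arrays) and 3.67 ± 0.13 on day 11 (n = 7), its highest and lowest days among those with over 1 array, and the arrays of these days did not overlap. TaAffx.128414.82.S1_at averaged 3.67 ± 0.15 on day 4 and 3.22 ± 0.12 on day 1, again without overlap (F = 4.15, adjusted p = 0.0011). In both, the days were picked by the same values, so the lack of overlap is no support beyond the F-test. TaAffx.128414.47.S1_at averaged 3.98 ± 0.14 on day 10 and 3.61 ± 0.10 on day 6 (F = 4.08, adjusted p = 0.0013), and TaAffx.128896.17.S1_s_at 4.06 ± 0.34 on day 9 and 3.54 ± 0.22 on day 5 (F = 3.11, adjusted p = 0.0088).

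The others that differed between days were TaAffx.128414.146.S1_at, TaAffx.128414.130.S1_at, TaAffx.128414.126.S1_at, TaAffx.128414.72.S1_at, TaAffx.128414.37.S1_at and TaAffx.128414.56.S1_at, with adjusted p between 0.0050 and 0.039 in limma. The brightest probe sets did not pass, and Ta.24976.1.S1_x_at averaged 14.77 ± 0.06 on day 4 and 14.49 ± 0.37 on day 9 (F = 1.94, limma adjusted p = 0.097). With the line as a block 3 passed, against 18.7% of all, namely TaAffx.128414.82.S1_at (adjusted p = 0.016), TaAffx.128414.229.A1_x_at (0.024) and TaAffx.128414.196.S1_at (0.042).

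The 3'/5' ratio rises when the 5' part of transcripts is under-represented, and it stands here for RNA quality and labelling. The slope on it passed in 8 of 28 rbcl probe sets, all positive, against 32.2% of all and 18.2% with a positive slope (limma, line as a random block). At an unadjusted p under 0.05 there were 13, against 42.0% of all. Ta.14567.2.S1_at had a slope of 0.50 ± 0.11 log2 units per unit of the ratio (SE, limma adjusted p = 2.43e-04). TaAffx.128414.72.S1_at had 0.46 ± 0.14, TaAffx.128414.146.S1_at 0.44 ± 0.10, TaAffx.128414.37.S1_at 0.31 ± 0.08 and TaAffx.128414.229.A1_x_at 0.31 ± 0.11. TaAffx.128414.42.S1_at and TaAffx.128414.40.S1_at had slopes of 0.24 each and TaAffx.128414.15.S1_at of 0.23. The slope was -0.07 ± 0.07 in Ta.24976.1.S1_x_at and -0.06 ± 0.08 in TaAffx.128414.1.A1_x_at (limma adjusted p = 0.497 and 0.610). With the line as a fixed block 0 of 28 passed, against 7.41% of all. TaAffx.128414.15.S1_at then had a slope of -0.04.

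The rbcl probe sets varied together only in part. Over the 72 arrays the 378 pairs had a median Pearson correlation of 0.16, with 19 pairs at 0.5 or more and 91 below 0. Over the 36 line means the median was 0.23, and over the differences between the 2 arrays of a line it was 0.08. The arrays share their hybridisation days and RNA quality, and these correlations are given as a description. Average linkage at a correlation of 0.5 left 15 of the 28 alone and put the others into 4 groups.

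The closest pair was that of the 2 brightest probe sets, at 0.97 (Spearman's rho 0.93), and at 0.93 without the 5 lowest arrays. TaAffx.128414.181.S1_at was grouped with them, at 0.62 and 0.61, but at 0.37 and 0.35 without those 5 arrays. The second group held TaAffx.128414.16.S1_at, TaAffx.128414.72.S1_at, TaAffx.128414.130.S1_at and TaAffx.128414.146.S1_at, in which TaAffx.128414.16.S1_at correlated at 0.60 with TaAffx.128414.130.S1_at and at 0.59 with TaAffx.128414.72.S1_at. TaAffx.128414.146.S1_at and TaAffx.128414.72.S1_at correlated at 0.62 over arrays, at 0.76 over line means and at 0.36 over differences within lines, and at 0.59 over arrays without A81.

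In the third group were TaAffx.128414.15.S1_at, TaAffx.128414.15.S1_x_at, TaAffx.128414.44.S1_at and TaAffx.128414.196.S1_at. The 2 whose names differ only in the suffix correlated at 0.70, and at 0.56 without B65 replicate 1, where they read 6.28 and 6.02 against medians of 5.19 and 4.74. Without the same array TaAffx.128414.15.S1_at and TaAffx.128414.196.S1_at correlated at 0.72, and at 0.57 with it. The last group was TaAffx.128414.53.S1_at with TaAffx.128414.82.S1_at, at 0.54. The lowest correlation of all was that of Ta.14567.2.S1_at with Ta.24976.1.S1_x_at, at -0.43, and without the 5 lowest arrays it was 0.08.

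Outside the gene, the probe sets most like Ta.24976.1.S1_x_at over 72 arrays were also near the top of the scale. Those with another gene symbol were LOC542913 (Pearson's correlation 0.78, mean 13.89), LOC543239 (0.75, mean 13.74), LOC543424 (0.74, mean 13.33), LOC778417 (0.69, mean 13.69) and LOC543361 (0.69, mean 13.90). Among all probe sets Ta.822.2.S1_x_at, which has no symbol, led at 0.81, and at 0.59 without the 5 lowest arrays. LOC542913 correlated at 0.57 without them. The median over all other probe sets was 0.02. With the mean of all 28 centred rbcl probe sets, TaAffx.128414.137.S1_at of the same name stem correlated best (0.69), followed by TaAffx.50290.1.S1_at (0.67). The closest with another gene symbol were LOC100037635 (0.56) and LOC542811 (0.54).

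Other photosynthesis symbols (Calvin cycle, light reactions, plastid genes) matched 9 probe sets, the 8 of green tissue above and 1 of LOC543415. The synonyms of LOC543415 are atpA, hydrolase and IVR1, so its place among photosynthesis genes is not settled. Its probe set passed none of the tests below. Over lines 1 of the 9 passed, that of PsbP, which stabilises the oxygen-evolving complex of photosystem II (Ta.85.1.S1_at, limma adjusted p = 0.044), beside 0 of 28 for rbcl and 2.54% of all. None passed between replicates, with PsbO the closest (-0.14 ± 0.05, SE, limma adjusted p = 0.107). Between days 6 of 9 passed, against 41.3% of all. On the 3'/5' ratio 3 passed, against 32.2% of all, and all 3 had a negative slope (8535 of the 61179 probe sets passed with one): -0.37 for PsbO and -0.43 and -1.35 for the 2 probe sets of PsbP, whereas the 8 rbcl probe sets that passed had positive slopes.

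Over the 36 line means, 24 relations were computed between the 4 rbcl probe sets above the low range and 4 photosynthesis probe sets, the 3'/5' ratio and the highest value of the other probe sets. Ta.24976.1.S1_x_at rose with PRK (Pearson's r = 0.49, permutation p = 0.0025, adjusted 0.023, and Spearman's rho = 0.51, permutation p = 0.0016, adjusted 0.028). Without F48 and C31, the lines farthest from the median of PRK, r was 0.39. Within the 8 days with at least 6 arrays r ran from 0.05 to 0.70 and was positive in all 8. Its relation to PsbP (r = 0.44, permutation p = 0.0067, adjusted 0.023, rho = 0.28, permutation p = 0.10, adjusted 0.25) rested on C31 and B33, since r was 0.13 without them. With PsbP TaAffx.120874.1.S1_x_at r was 0.15 (permutation p = 0.37, adjusted 0.50), and with PsbO 0.32 (permutation p = 0.060, adjusted 0.13). FBP and petC were not among the 4. Over the 72 arrays Ta.24976.1.S1_x_at correlated at -0.52 and 0.09 with FBP (TaAffx.106041.1.S1_at and Ta.439.1.S1_at). With petC (Ta.861.1.S1_at and TaAffx.128418.105.S1_at) it did so at 0.30 and -0.22. TaAffx.128414.1.A1_x_at had r = 0.41 with PRK (permutation p = 0.012, adjusted 0.037) and rho = 0.39 (permutation p = 0.019, adjusted 0.092), and r was 0.30 without F48 and C31. Within days it ran from -0.15 to 0.68 and was positive in 7 of 8.

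Both also rose with the highest value of the other probe sets of the array. Ta.24976.1.S1_x_at had r = 0.45 (permutation p = 0.0052, adjusted 0.023) and rho = 0.27 (permutation p = 0.11, adjusted 0.25), and TaAffx.128414.1.A1_x_at had r = 0.45 (permutation p = 0.0065, adjusted 0.023) and rho = 0.28 (permutation p = 0.093, adjusted 0.25). Without C31 and E5, the lines farthest from the median of that value, r was 0.24 and 0.25, and within days it ran from -0.67 to 0.94 and from -0.75 to 0.94, positive in 5 of 8 for both, so these relations rested on those lines and did not hold within all days. The relations to PRK and PsbP were not tested apart from this height of the scale.

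TaAffx.128414.196.S1_at went the other way, with r = -0.45 (permutation p = 0.0056, adjusted 0.023) and rho = -0.47 (permutation p = 0.0038, adjusted 0.028) against PsbP Ta.85.1.S1_at, and r was -0.40 without C31 and B33. Within days it ran from -0.87 to 0.10 and was positive in 3 of 8. Against the other PsbP probe set, TaAffx.120874.1.S1_x_at, r was -0.50 (permutation p = 0.0022, adjusted 0.023) and rho -0.49 (permutation p = 0.0025, adjusted 0.028), with r at -0.43 without B33 and G13 and from -0.86 to 0.38 within days, positive in 3 of 8. Against the 3'/5' ratio the same probe set had r = 0.48 (permutation p = 0.0036, adjusted 0.023) and rho = 0.47 (permutation p = 0.0047, adjusted 0.028), and r was 0.41 without H8 and A81. Within days that relation ran from -0.52 to 0.82 and was positive in 4 of 8, so it did not hold within all days. The ratio also had negative slopes with PsbP, and the relation of TaAffx.128414.196.S1_at to PsbP was not tested apart from it. For this probe set r was -0.34 against PsbO (permutation p = 0.041, adjusted 0.098) and -0.30 against PRK (permutation p = 0.079, adjusted 0.15). Over the 72 arrays it correlated at 0.49 and -0.25 with FBP (TaAffx.106041.1.S1_at and Ta.439.1.S1_at). With petC (Ta.861.1.S1_at and TaAffx.128418.105.S1_at) it did so at -0.36 and 0.325. The relations of TaAffx.128414.181.S1_at all missed an adjusted p of 0.05, with r from -0.19 to 0.31.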

How the data were processed

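Seeds of 36 lines were measured on 72 Affymetrix wheat arrays. The authors deposited 1 table of linear intensity values, made with RMA per the submitters' processing notes, and other steps are not given in the sources used here. Log2 of each intensity was taken with no pseudocount, 111 Affymetrix control probe sets were left out, and 0 other columns of per-sample values were found. Symbols came from the supplied platform annotation. Tests used limma 3.58.1 in R 4.3.3, with Benjamini-Hochberg adjustment over 61179 probe sets, and were tested on simulated data. Permutation tests were two-sided with 100000 draws (scipy 1.17.1). Named with values were the highest and lowest probe sets, those past a threshold, the 4 with the largest F and line range, and the 3 largest replicate differences each way. The members and lists were chosen with earlier results of these data known. The alternatives were other normalisations, a pseudocount, a filter, blocks, covariates and left-out arrays. RMA summarises many probes and puts the arrays on a common scale, so differences between arrays can be smaller than in raw signals. Raw signals were not compared here.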

Additional observations from a re-analysis of the deposited data

How the results depend on the processing

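Quantile normalisation, median centring, a pseudocount of 16, an intensity trend and leaving out the 3 farthest arrays changed no count of rbcl probe sets past the adjusted threshold by more than 1.5 times. At an unadjusted p under 0.05, the 1 between F38a and F38b became 2 with quantile normalisation, median centring and the intensity trend. Of the 114 alternatives to counts 78 kept theirs and 36 moved. Of 349 alternatives for single probe sets, 253 kept direction and side of the threshold, 79 lost the call, 2 gained it and 15 reversed, and the cause was not tested. Line differences were found in 1 rbcl probe set without the lines of unmatched arrays (4465 of all probe sets) and in 1 with the day block. The filter at a mean log2 of at least 5 kept 34369 probe sets, 6 of them rbcl. Between replicates 0 of these 6 remained, against 5.74% of the 34369. Without the lines of unmatched arrays 0 remained (6 of all), and with the day block 0 (0 of all). The ratio as a covariate left 483 of all. Within days 5, 6 and 10 there were 0, 0 and 0 rbcl probe sets and 0, 1 and 0 of all. Day differences numbered 0 of 6 with the mean filter, against 57.4% of the 34369. Without the lines of unmatched arrays they numbered 0 (1000 of all), and with the line block 3 (11471 of all). Slopes numbered 1 of 6 with the mean filter, against 12960 of the 34369 (37.7%). Without the lines of unmatched arrays they numbered 2 (5232 of all), with the day block 4 (11948) and with the line as a fixed block 0 (4535). With single control genes there were 2 for actin (8007 of all), 0 for ef1a (1409), 4 for gapdh, 1 for CYP86 (10489) and 13 for G-6-PDH. For gapdh and G-6-PDH the count over all probe sets stayed within 1.5 times the 19679 of the main fit.

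Replicate differences reversed within days 5 and 6 for Ta.14567.2.S1_at (-0.0058 and -0.043). Within days 6 and 10 they reversed for Ta.24976.1.S1_x_at (0.030 and 0.082), TaAffx.128414.1.A1_x_at (0.046 and 0.11) and TaAffx.128414.229.A1_x_at (0.055 and 0.083). They also reversed for TaAffx.128896.17.S1_s_at within day 6 (-0.016) and for TaAffx.128414.37.S1_at with the day block (-0.0075). Slopes reversed for TaAffx.128414.15.S1_at with the line as a fixed block (-0.039) and with CYP86 (-0.074), for TaAffx.128414.229.A1_x_at with gapdh (-0.17), for TaAffx.128414.42.S1_at with CYP86 (-0.024) and for TaAffx.128414.72.S1_at with ef1a (-0.18).

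Leaving out 1 array gave 0 to 2 rbcl probe sets with line differences (1220 to 3075 of all) and 0 between F38a and F38b (0 to 2 of all), and leaving out 1 line gave 1 to 2 between replicates (695 to 2874 of all). Whether the replicate numbers pair arrays across lines was not settled. Over 595 pairs of lines the differences of replicate 3 minus 1 correlated at a median of 0.04, from -0.663 to 0.625. Of these pairs, 229 were over 0.1. With the replicate block 0 rbcl probe sets differed between lines (1639 of all) and 0 between F38a and F38b (0 of all), and with no replicate block 1 differed between replicates (1525 of all). F38a against F38b without the lines of unmatched arrays, and line differences within days, were not run, since both lines are left out and no day holds both arrays of more than 1 line. Signal near the top of the scale and below the array median limits what these probe sets can show.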
